A study of Mus musculus with 6 samples.

Results

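The genes described here are 8 that encode proteins of the secondary and tertiary granules of mouse neutrophils: Fcnb, Orm1, Camp, Ltf, Ngp, Lcn2, Mmp9 and Mmp8. They were taken by symbol from the 55450 genes in the files, and each symbol belonged to a single gene. Their transcripts were counted by droplet-based single-cell RNA-seq in cranial bone marrow of wild-type C57BL/6 mice that received no treatment. The mice were 2, 12 or 18 months old (02m, 12m, 18m), and 6 to 8 mice of an age, stated to be male, were pooled. CBMA libraries held the sagittal suture with the parietal bone next to it, and CBMD libraries held parietal bone away from the sutures. This gave 6 libraries, CBMA_02m, CBMA_12m, CBMA_18m, CBMD_02m, CBMD_12m and CBMD_18m, with 1 library per site and age. Dura and periosteum had been removed, the tissue was digested with enzymes, and red cells were lysed and dead cells depleted before capture, without sorting of a cell type. Since each site and age is a single library, the text gives values, intervals that cover counting error only, and a fixed size of 1.5-fold. A single kind of test is given, a fit of site and age over the 6 libraries, further on.

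Neutrophils were taken as cells in which S100a8 and S100a9, 2 calcium-binding protein genes, together made up at least 2% of unique molecular identifiers (UMIs, the counted molecules). The rule gave 21938 neutrophils among 37576 cells that passed the quality limits, with 4980, 1470 and 4117 in CBMA_02m, CBMA_12m and CBMA_18m and 4998, 2473 and 3900 in CBMD_02m, CBMD_12m and CBMD_18m. Their summed UMIs ranged from 5959502 in CBMA_12m to 19400895 in CBMD_02m. The median neutrophil held 2529.5 to 3129 UMIs. Between 160 and 227 cells per library lay just inside the limit, at 2 to 3%, and 200 to 291 lay just outside it, at 1 to 2%. Neutrophil genes that the rule did not use bore out the name: Ly6g stood at 198 to 337 UMIs per 1000000 UMIs (CPM) in neutrophils and at 1.38 to 4.94 CPM in the other cells, and Csf3r, the receptor for the granulocyte growth factor, at 932 to 1839 CPM in neutrophils and at 112 to 271 CPM in the other cells. A neutrophil with at least 2 UMIs of Mki67 and Top2a together, genes of dividing cells, was called cycling. Cycling cells were 739, 297 and 200 in CBMA_02m, CBMA_12m and CBMA_18m, or 14.8%, 20.2% and 4.86% of neutrophils, and 209, 162 and 142 in CBMD_02m, CBMD_12m and CBMD_18m, or 4.18%, 6.55% and 3.64%.

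The 12m libraries stood apart from the other 4. Neutrophils of both held Xist, a transcript of female cells, at 402.9 CPM in CBMA_12m and 293.7 CPM in CBMD_12m, against 0 to 0.206 CPM in the other libraries, although the mice are stated to be male. Genes of the Y chromosome were also counted there, at 80.4 CPM in CBMA_12m and 91.0 CPM in CBMD_12m, against 162.8 to 282.9 CPM in the others. More of their neutrophils held under 1000 UMIs, 146 in CBMA_12m and 212 in CBMD_12m, against 27 to 59 in the other libraries. Comparisons of levels that rest on a 12m library are therefore also given for neutrophils with a Y-linked UMI and no Xist in each library compared, and those between the 12m libraries for cells with Xist and no Y-linked UMI as well. Of the 43420 barcodes, 208 barcode sequences occurred in more than 1 library, and 49 of these among neutrophils.

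Neutrophils fill their granules in sequence while they mature in the marrow. Primary granules form first, in dividing promyelocytes; secondary granules follow, up to the last division and shortly after it; tertiary, gelatinase-rich granules are made last, when the cells no longer divide. The contents of a granule are largely set by which genes are transcribed while it forms, and C/EBPε, a transcription factor of late granulocyte development, is required for many secondary granule genes.

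The 8 genes have different roles in this cargo. Fcnb encodes ficolin B, a lectin that binds sugars on microbes and can start complement. Orm1 encodes orosomucoid, a plasma carrier protein that neutrophils also store. Camp encodes the cathelicidin precursor, from which an antimicrobial peptide is cut. Ltf encodes lactoferrin, which binds iron. Ngp encodes neutrophilic granule protein, related to cystatins. Lcn2 encodes lipocalin 2, which captures the iron carriers of bacteria. Mmp9 encodes gelatinase B and Mmp8 the neutrophil collagenase, enzymes that cut the matrix.

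In the GRCm38 genome, 4 of the genes lie on chromosome 9: Mmp8 (ENSMUSG00000005800) at chr9:7558456-7568485 on the plus strand, Camp (ENSMUSG00000038357) at chr9:109847379-109849617 on the minus strand, Ngp (ENSMUSG00000032484) at chr9:110419747-110423012 on the plus strand and Ltf (ENSMUSG00000032496) at chr9:111019271-111042767 on the plus strand. Fcnb (ENSMUSG00000026835) at chr2:28076378-28084885, minus strand, Lcn2 (ENSMUSG00000026822) at chr2:32384633-32388252, minus strand, and Mmp9 (ENSMUSG00000017737) at chr2:164940780-164955850, plus strand, lie on chromosome 2. Orm1 (ENSMUSG00000039196) lies at chr4:63344560-63348163 on the plus strand. No other annotated gene overlaps any of the 8. Orm1 has close copies, Orm2 and Orm3, with 6 and 12 UMIs in all neutrophils, and reads of the 3 may have been split between them, so its counts are uncertain.

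The 250 bases before the RefSeq start of Fcnb, Ltf and Mmp8 are shown because these genes stand for the early, middle and late places in the order described further on. The sequences are from RefSeq, build GRCm38.p6, written 5′ to 3′ on the gene's strand. They are chr2:28084879-28085128 on the minus strand for Fcnb, chr9:111019042-111019291 on the plus strand for Ltf and chr9:7558179-7558428 on the plus strand for Mmp8. The RefSeq starts differ from the gene ends given above, which are from GENCODE: the windows of Fcnb and Ltf reach into the GENCODE gene, and that of Mmp8 stops short of it. Capitals mark every match to TTNNGNAA, the paired half-sites that C/EBP factors recognize, searched on both strands.
Fcnb: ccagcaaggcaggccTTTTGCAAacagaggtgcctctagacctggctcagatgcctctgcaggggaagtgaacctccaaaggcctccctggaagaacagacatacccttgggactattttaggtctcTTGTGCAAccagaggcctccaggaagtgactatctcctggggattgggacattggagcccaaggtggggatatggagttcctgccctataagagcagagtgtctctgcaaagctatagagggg
Ltf: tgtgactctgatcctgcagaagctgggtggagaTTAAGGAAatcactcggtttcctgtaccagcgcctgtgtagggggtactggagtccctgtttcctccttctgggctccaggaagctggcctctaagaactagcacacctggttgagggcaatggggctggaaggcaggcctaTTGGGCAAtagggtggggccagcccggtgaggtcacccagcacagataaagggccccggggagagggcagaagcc
Mmp8: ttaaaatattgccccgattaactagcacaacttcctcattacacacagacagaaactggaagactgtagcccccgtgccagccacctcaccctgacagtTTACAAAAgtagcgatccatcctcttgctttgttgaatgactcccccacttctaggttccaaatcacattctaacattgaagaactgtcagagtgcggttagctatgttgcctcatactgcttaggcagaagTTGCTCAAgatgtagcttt
The windows searched ran from 250 bases before the start to 50 after it, and 6 of the 8 genes had one (Mmp9 and Orm1 did not). The window of Lcn2 lies wholly inside the GENCODE gene. Fcnb held matches at -235 and -123 from the start, Ltf at -217 and -75, Mmp8 at -151 and -19, Ngp at -138, -102 and -11, and Lcn2 at -216, while the window of Camp held none. The pattern is common: 13365 of 32851 promoters of the same length, 40.7%, had at least 1 match. The letters GAGGAAGT, a core recognized by PU.1, were found in 3.20% of promoters and, among the 6, in Mmp8 alone, at -221. A match describes the letters only, and no binding was measured.

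All 8 genes were counted in the neutrophils of every library. Fcnb, Orm1, Camp, Ltf and Ngp differed more than 10-fold between libraries, while Lcn2 and Mmp8 differed less and Mmp9 was nearly level. The share of all genes with a spread over 10-fold was not computed. Camp stood at 10582, 22950.4 and 4274 CPM in CBMA_02m, CBMA_12m and CBMA_18m and at 1515, 7143 and 2849.6 CPM in CBMD_02m, CBMD_12m and CBMD_18m. Ltf stood at 1485, 3649 and 1004 CPM in CBMA_02m, CBMA_12m and CBMA_18m and at 268, 1726 and 451 CPM in CBMD_02m, CBMD_12m and CBMD_18m. Both were highest in CBMA_12m and lowest in CBMD_02m, 15.1-fold apart for Camp and 13.6-fold apart for Ltf. Fcnb stood at 352, 698 and 215 CPM in CBMA_02m, CBMA_12m and CBMA_18m and at 61.4, 171 and 169 CPM in CBMD_02m, CBMD_12m and CBMD_18m. Ngp ranged from 1244 CPM in CBMD_02m to 13737 CPM in CBMA_12m, and Orm1 from 7.94 CPM in CBMD_02m to 89.8 CPM in CBMA_12m, so these 3 had the same highest and lowest libraries as Camp and Ltf. Lcn2 varied less, with 5711, 6185 and 3249 CPM in CBMA_02m, CBMA_12m and CBMA_18m and 2913, 4657 and 2745 CPM in CBMD_02m, CBMD_12m and CBMD_18m. Mmp8 stood at 1099, 883 and 1715 CPM in CBMA_02m, CBMA_12m and CBMA_18m and at 900.0, 1223 and 1995 CPM in CBMD_02m, CBMD_12m and CBMD_18m. It was highest in the 18m library of each site and lowest in CBMA_12m. Mmp9 was nearly level, at 1200.4 to 1468 CPM over the 6 libraries.

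**Figure D1:**
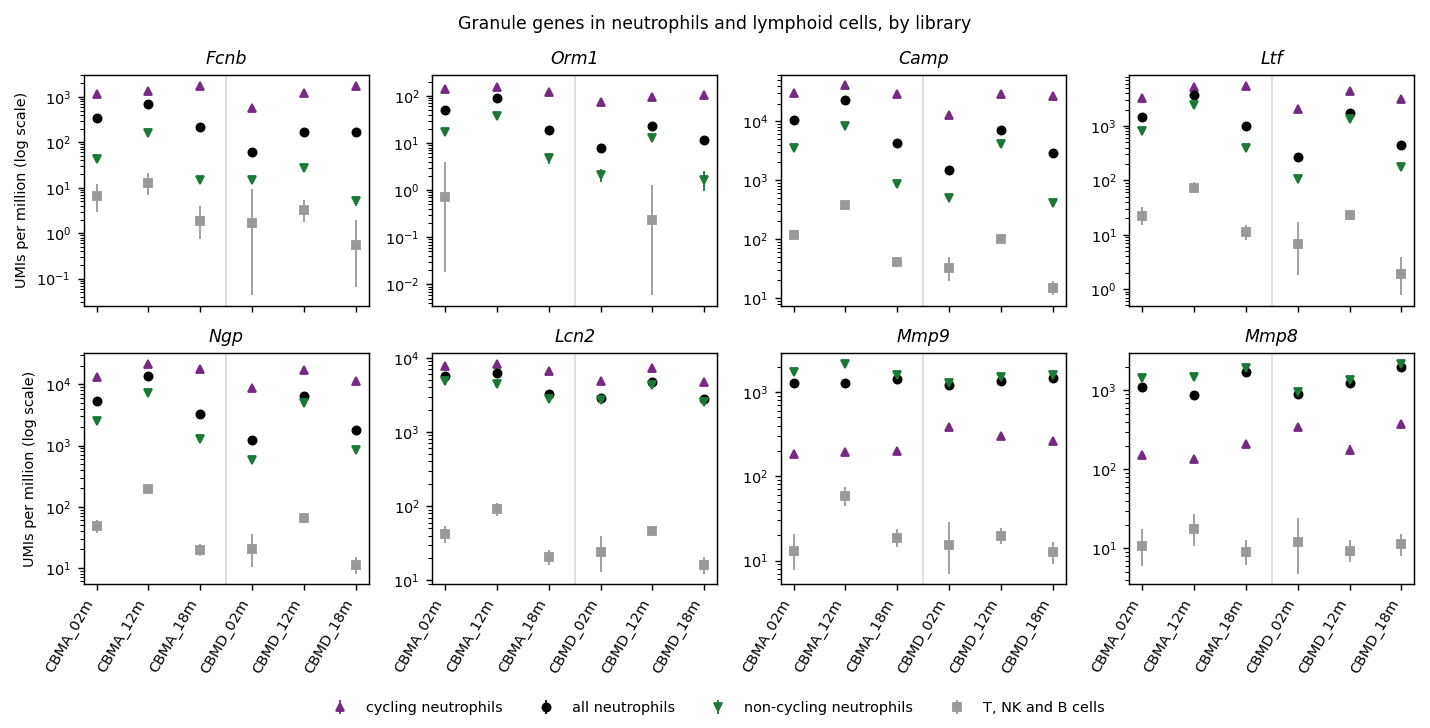
Levels of the 8 granule genes by library. Each panel is 1 gene; the y axis gives CPM on a log scale, the x axis the 6 libraries, the colours cycling, all and non-cycling neutrophils and the T, NK and B cells, and the bars the 95% counting interval (levels of 0 are not drawn). Camp was highest in CBMA_12m at 22950.4 CPM over all neutrophils, while Mmp9 stayed between 1200.4 and 1468 CPM.

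Counts per cell were very uneven. The mean number of Camp UMIs per neutrophil was 41.1, 93.0 and 15.7 in CBMA_02m, CBMA_12m and CBMA_18m and 5.88, 25.9 and 9.03 in CBMD_02m, CBMD_12m and CBMD_18m, yet the median was 0 to 3 and the highest cell of a library held 1439 to 2362. Neutrophils with at least 10 Camp UMIs made up 20.4%, 26.9% and 6.19% in CBMA_02m, CBMA_12m and CBMA_18m and 4.24%, 16.8% and 4.59% in CBMD_02m, CBMD_12m and CBMD_18m. The 10% of neutrophils with the most Camp UMIs held 75.9% to 99.1% of the Camp UMIs of their library. The corresponding 10% for Mmp9 held 31.0% to 41.1%. Camp thus sat in few cells with high counts, and Mmp9 was spread over many, with a median of 3 or 4 UMIs per neutrophil in every library. Lcn2 had a median of 9, 3 and 4 UMIs per neutrophil in CBMA_02m, CBMA_12m and CBMA_18m and of 5, 4 and 4 in CBMD_02m, CBMD_12m and CBMD_18m.

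Transcripts of these genes were also found in cells that should lack them, and the level in those cells moved with that in neutrophils. Summed over the 8 genes, neutrophils stood at 25974, 49458 and 15193 CPM in CBMA_02m, CBMA_12m and CBMA_18m and at 8109.9, 22720.3 and 11506 CPM in CBMD_02m, CBMD_12m and CBMD_18m. In T, NK and B cells, 111 to 661 cells per library, the 8 genes summed to 260.2, 824 and 121 CPM in CBMA_02m, CBMA_12m and CBMA_18m and to 112, 268 and 68.3 CPM in CBMD_02m, CBMD_12m and CBMD_18m. CBMA_12m was thus highest in both kinds of cell. Without any adjustment for depth, Camp had a UMI in 91.1% of neutrophils and 89.1% of the T, NK and B cells of CBMA_12m, with median depths of 2529.5 and 5319.5 UMIs, and in 18.2% of neutrophils and 10.5% of the T, NK and B cells of CBMD_18m, with median depths of 2713.5 and 5469.5 UMIs. With each cell thinned to 1000 UMIs, Camp was seen in 34.9%, 73.0% and 15.2% of neutrophils and in 13.2%, 40.9% and 5.68% of T, NK and B cells of CBMA_02m, CBMA_12m and CBMA_18m. In CBMD_02m, CBMD_12m and CBMD_18m the thinned shares were 10.9%, 40.4% and 10.8% of neutrophils and 5.66%, 12.8% and 1.31% of T, NK and B cells. Since many T, NK and B cells had a Camp UMI, the comparisons of libraries below rest on levels rather than shares. Mmp8 was different: at 1000 UMIs it was seen in 45.5% to 64.3% of neutrophils and in 0 to 1.53% of T, NK and B cells. At 10 UMIs or more, Camp was found in at most 0.641% of the T, NK and B cells of any library.

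The first question was how the genes differ between neutrophils that still divide and those that do not. Fcnb, Orm1, Camp, Ltf and Ngp, and to a smaller extent Lcn2, were higher in cycling cells of all 6 libraries, and Mmp8 and Mmp9 were lower in all 6. These 6 and 2 genes passed 1.5-fold in every library, and over all 13780 genes compared 21.4% passed it upwards and 9.38% downwards in each library. Cycling cells had more UMIs, with median depths of 4019 to 7105 UMIs against 2191 to 3082 UMIs in non-cycling neutrophils, and CPM adjusts for this total.

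Fcnb showed the steepest contrast. It stood at 1185, 1363 and 1701 CPM in cycling neutrophils of CBMA_02m, CBMA_12m and CBMA_18m, against 42.7, 158 and 15.0 CPM in the non-cycling cells of the same libraries. In cycling neutrophils of CBMD_02m, CBMD_12m and CBMD_18m it stood at 579, 1212 and 1747 CPM, against 14.8, 27.4 and 5.18 CPM in non-cycling cells. No level in cycling cells overlapped a level in non-cycling cells. The ratios ran from 8.60 (95% counting interval 7.85 to 9.45) in CBMA_12m to 337 (260 to 446) in CBMD_18m, with a median of 41.6. Cycling cells held 77.9% to 97.2% of all Fcnb UMIs of neutrophils.

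Camp, Orm1, Ngp and Ltf followed with smaller ratios. Camp stood at 29677, 40994 and 29582 CPM in cycling neutrophils of CBMA_02m, CBMA_12m and CBMA_18m, against 3491, 8299.9 and 871 CPM in non-cycling ones. In CBMD_02m, CBMD_12m and CBMD_18m it stood at 12887, 29596 and 26431 CPM in cycling neutrophils, against 490.4, 4041 and 405 CPM in non-cycling ones. The groups did not overlap, and the ratio ran from 4.94 (4.87 to 5.01) in CBMA_12m to 65.2 (63.2 to 67.3) in CBMD_18m. A cycling cell carried 98.9 to 369 Camp UMIs on average. Ltf stood at 3296, 5207 and 5521 CPM in cycling neutrophils of CBMA_02m, CBMA_12m and CBMA_18m and at 2049, 4459.9 and 3136 CPM in those of CBMD_02m, CBMD_12m and CBMD_18m. Its levels in non-cycling neutrophils were 813, 2383 and 397 CPM in CBMA_02m, CBMA_12m and CBMA_18m and 107, 1348 and 173 CPM in CBMD_02m, CBMD_12m and CBMD_18m. Here the groups overlapped across libraries, since non-cycling cells of CBMA_12m stood above cycling cells of CBMD_02m, but within each library cycling cells were higher, by 2.19-fold (2.13 to 2.25) in CBMA_12m to 19.1-fold (18.1 to 20.3) in CBMD_02m. Median ratios were 17.4 for Camp, 16.9 for Orm1, 9.44 for Ngp and 8.99 for Ltf.

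The libraries differed in how far the contrast reached. CBMA_12m had the lowest ratio of the 6 for Fcnb, Camp, Orm1, Ngp and Ltf, and its non-cycling neutrophils had the highest level of each of these 5 genes. CBMD_12m came next among non-cycling levels of Camp, Ngp and Ltf, and only 50.3%, 32.0% and 31.4% of its UMIs of these 3 genes lay in cycling cells, the lowest of the 6 libraries for each. Cycling cells of CBMD_02m were mixed, with a mean of 98.9 but a median of 2 Camp UMIs per cell, while in the other libraries the median was 31 to 248.

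Lcn2 was higher in cycling cells by a narrow and steady margin. It stood at 7856, 8294 and 6693 CPM in cycling neutrophils of CBMA_02m, CBMA_12m and CBMA_18m, against 4915, 4473 and 2785 CPM in non-cycling ones. In CBMD_02m, CBMD_12m and CBMD_18m it stood at 4851, 7276 and 4652 CPM in cycling neutrophils, against 2739, 4295 and 2547 CPM in non-cycling ones. The ratio was 1.60 to 2.40 and differed less between libraries, as a fold, than that of any of the other 7 genes.

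The collagenase and gelatinase genes ran the other way. Mmp8 stood at 153, 134 and 208 CPM in cycling neutrophils of CBMA_02m, CBMA_12m and CBMA_18m, against 1450.3, 1491 and 1917 CPM in non-cycling ones. In CBMD_02m, CBMD_12m and CBMD_18m it stood at 341, 176 and 371 CPM in cycling neutrophils, against 950.3, 1367 and 2163 CPM in non-cycling ones. Every level in cycling cells was below every level in non-cycling cells, with a ratio of 0.0897 (0.0803 to 0.0999) in CBMA_12m to 0.359 (0.329 to 0.391) in CBMD_02m. Mmp9 had nearly the same ratios, 0.0906 to 0.303, and cycling cells held at most 6.79% of the Mmp8 UMIs and 6.85% of the Mmp9 UMIs of a library.

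**Figure D2:**
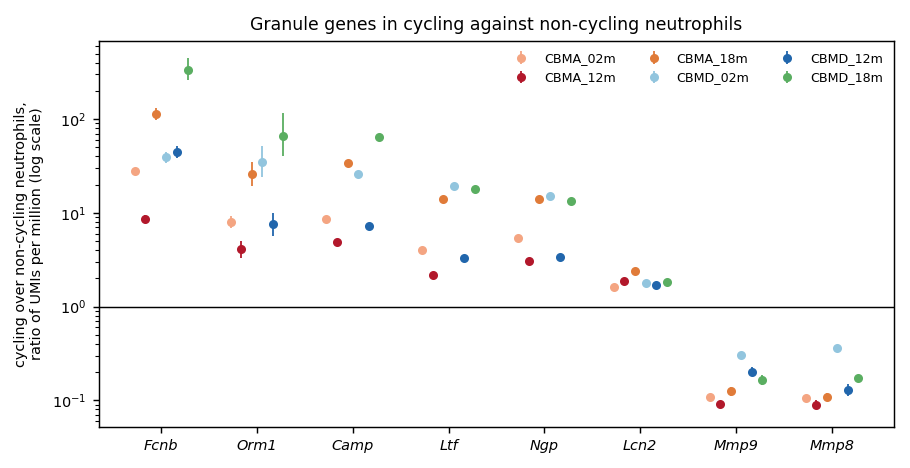
Ratio of the level in cycling neutrophils to that in non-cycling neutrophils, for each gene in each of the 6 libraries. The ratio of CPM is on a log axis, each point is a library, and 1 means equal levels. Fcnb had ratios of 8.60 to 337, Lcn2 of 1.60 to 2.40 and Mmp8 of 0.0897 to 0.359.

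The second question was the order of Fcnb, Camp, Ltf and Mmp8 along maturation. Neutrophils were thinned to 1000 UMIs and ordered by the log2 ratio of 9 genes of mature cells (such as Cxcr2 and Retnlg) to 10 genes of immature ones (such as Mpo, Elane and Cebpe), none of them among the 8, and the order was divided into 10 bins in which all libraries weigh equally. The immature genes include Chil3 and Cd63, which are also on the list of other secondary and tertiary granule genes used further on. The axis is therefore not free of such genes. In the first bin 52.6% to 85.7% of cells were cycling, in the second 6.60% to 15.8%, and in the last at most 5.26%. The position of a gene was the mean bin number weighted by its level. The order Fcnb, Camp, Ltf, Mmp8 was found in 6 of 6 libraries. An axis without Retnlg and Chil3 was among 15 alternatives in which the order held in 4 to 6 libraries.

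Over the libraries, the median position was 1.23 for Fcnb, 1.32 for Orm1, 1.56 for Camp, 1.88 for Ltf, 2.45 for Ngp, 5.12 for Lcn2, 6.43 for Mmp9 and 6.76 for Mmp8. Camp, Ltf, Ngp, Lcn2, Mmp9 and Mmp8 had the same places in that order in each library, and only Fcnb and Orm1 changed places, in CBMA_12m. Neighbours were not all well apart: Ltf lay behind Camp by 0.0604 bins in CBMD_02m and by 0.526 bins in CBMA_12m. Fcnb, Orm1, Camp, Ltf, Ngp and Lcn2 each had their highest level in the first bin of all libraries, and Mmp8 and Mmp9 in the last, so among the early genes the order reflects how fast the level falls.

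The fall was steep for Fcnb. It stood at 1273, 1327 and 1899 CPM in the first bin of CBMA_02m, CBMA_12m and CBMA_18m and at 1161, 1186 and 2148 CPM in that of CBMD_02m, CBMD_12m and CBMD_18m. In the second bin it stood at 154, 146 and 70.4 CPM in CBMA_02m, CBMA_12m and CBMA_18m and at 97.3, 59.0 and 75.3 CPM in CBMD_02m, CBMD_12m and CBMD_18m. In the last bin it was at 0.0981% to 1.74% of its highest level, and at 2.11 to 23.1 CPM. T, NK and B cells held Fcnb at 0.546 to 12.9 CPM.

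Ltf kept more of its level into the second bin. It stood at 4288, 6239 and 7219 CPM in the first bin and 2727, 2602 and 1663 CPM in the second bin of CBMA_02m, CBMA_12m and CBMA_18m. In CBMD_02m, CBMD_12m and CBMD_18m it stood at 3693, 6646 and 3891 CPM in the first bin and at 754, 4319 and 1781 CPM in the second. Camp stood at 34896, 42453 and 34873 CPM in the first bin and at 11253, 8639 and 3768 CPM in the second bin of CBMA_02m, CBMA_12m and CBMA_18m. In CBMD_02m, CBMD_12m and CBMD_18m it stood at 21441, 35156 and 32467 CPM in the first bin and 4509, 11192 and 3727 CPM in the second. From bin 4 on, Camp stayed at 501 to 1932 CPM in CBMD_12m and 711 to 1728 CPM in CBMA_12m, against 111 to 925 CPM in the other 4 libraries, while T, NK and B cells held 377 CPM in CBMA_12m, 101 CPM in CBMD_12m and 14.7 to 117 CPM in the others.

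Lcn2 had 2 phases. In CBMA_02m it stood at 9778 CPM in bin 1, 2614 CPM in bin 3 and 5636 CPM in bin 10, and in CBMD_18m at 5195, 1503 and 4076 CPM in the same bins. Its lowest bin was bin 3, 4 or 5 in every library, and the last bin reached 42.0% to 78.5% of the first. Mmp8 was lowest in bin 1 and highest in bin 10 of every library, with 103, 1281 and 2192 CPM in bins 1, 5 and 10 of CBMA_02m and 88.8, 1480.0 and 3465 CPM in those of CBMD_18m. Mmp9 stood at 175, 1701 and 2110.3 CPM in these bins of CBMA_02m and at 53.5, 1429 and 2129 CPM in those of CBMD_18m, so by bin 5 it had come closer to its last level than Mmp8 had.

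**Figure D3:**
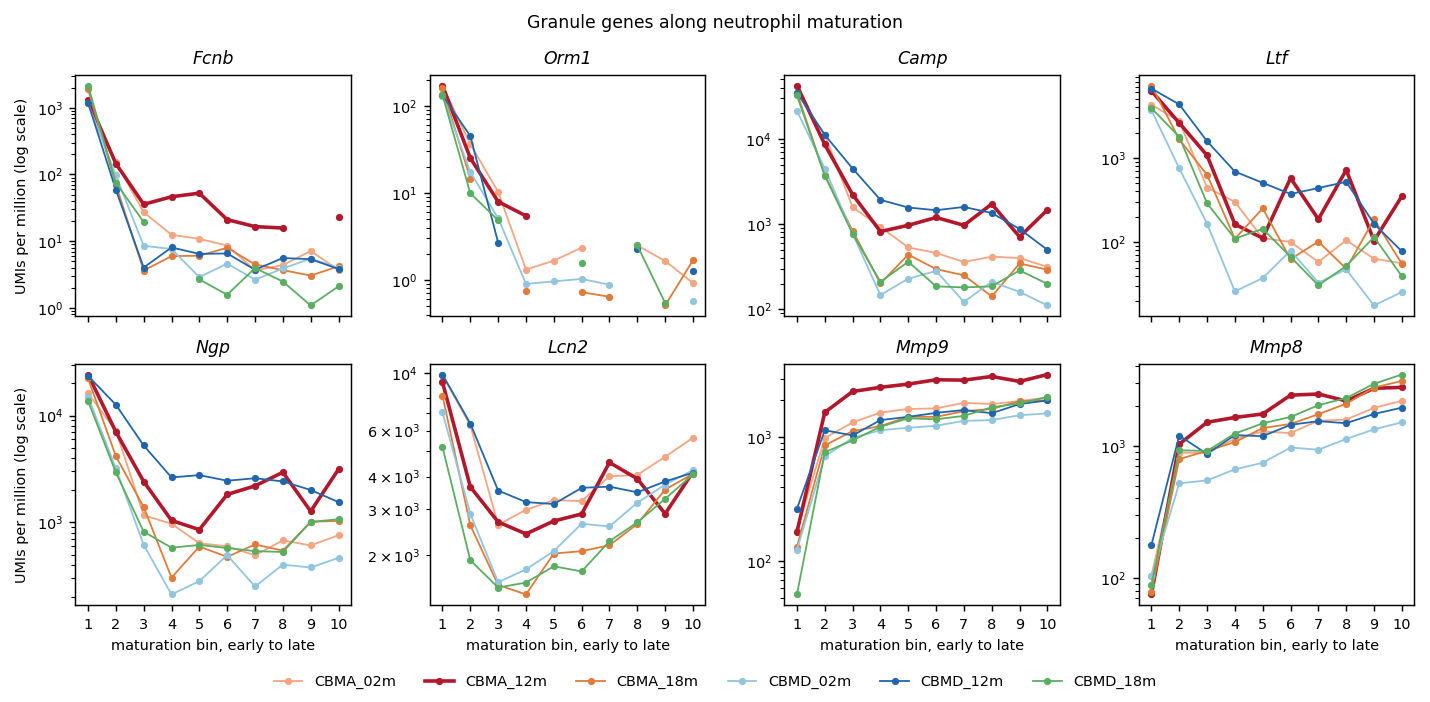
Level of each gene along maturation. The x axis gives the 10 bins, least mature first, the y axis CPM on a log scale, and each line is a library, with CBMA_12m drawn thick (levels of 0 are not drawn). Fcnb, Orm1, Camp, Ltf and Ngp were highest in the first bin, Lcn2 was lowest in the middle and at 42.0% to 78.5% of its first level in the last bin, and Mmp8 and Mmp9 were highest in the last bin.

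Because the early genes all peaked in the first bin, its cells and those of the second were divided into 8 finer bins, a step added after seeing the data. Fcnb was then highest in the first finer bin of all 6 libraries, where 77.1% to 92.9% of cells were cycling. Camp was highest in finer bin 2 of CBMA_02m, CBMA_18m and CBMD_12m and in finer bin 3 of the other 3 libraries, at 1.28 to 1.97 times its level in the first. Ltf was highest in finer bin 4 of CBMA_12m and CBMD_12m, later than Camp, and in the same finer bin as Camp in the other 4 libraries, at a median of 1.83 times its level in finer bin 1. Mmp8 was highest in finer bins 5 to 8. By position the order Fcnb, Camp, Ltf, Mmp8 was again found in 6 of 6 libraries, with medians of 2.21, 2.87, 3.32 and 6.01. Orm1 had a median of 2.76, Ngp of 3.00, Lcn2 of 3.42 and Mmp9 of 5.93, and Mmp9 lay before Mmp8 in 3 libraries and after it in 3. The windows printed above for Fcnb, Ltf and Mmp8, genes of the first, middle and last places, each held 2 matches to TTNNGNAA.

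**Figure D4:**
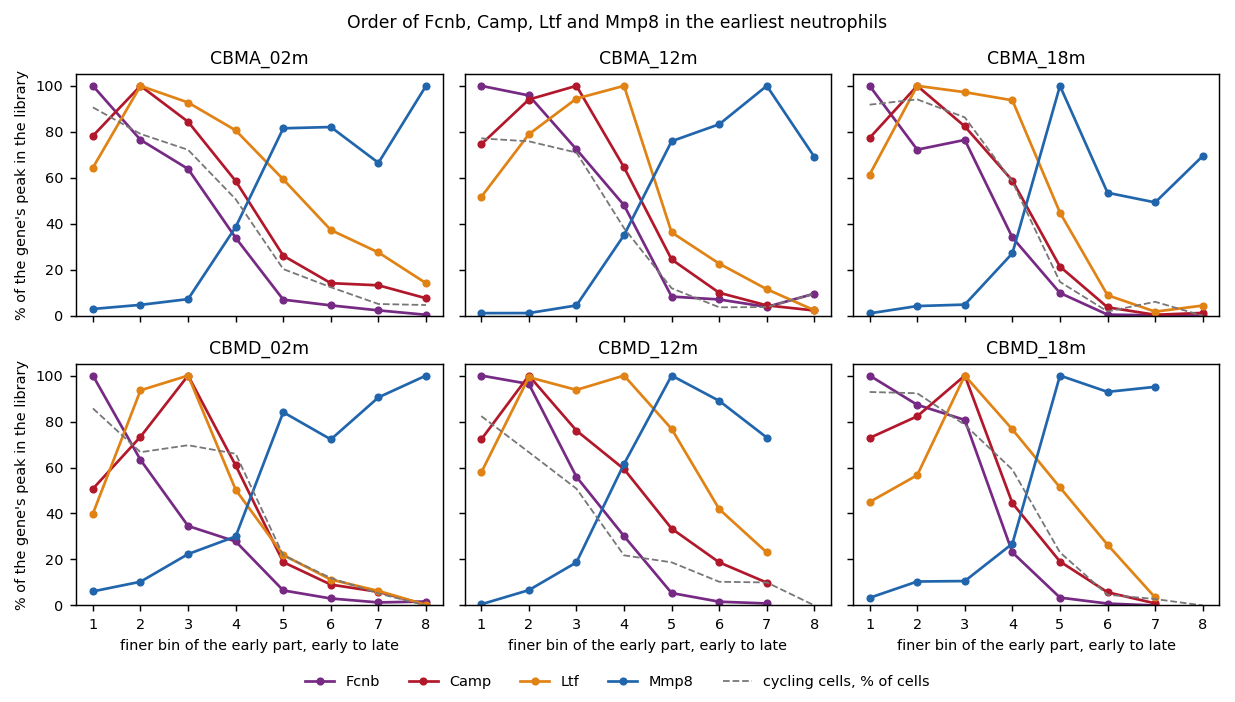
Fcnb, Camp, Ltf and Mmp8 in the first and second maturation bins, divided into 8 finer bins. Each panel is a library; the y axis gives the level as a percentage of the gene's highest level there, and the dashed line the percentage of cycling cells. Fcnb was highest in the first finer bin of all libraries, Camp in bin 2 or 3, Ltf in bins 2 to 4 and Mmp8 in bins 5 to 8.

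The order did not hold in 5 libraries once dividing cells were left out. With the axis built from non-cycling neutrophils alone, the order Fcnb, Camp, Ltf, Mmp8 held in CBMA_12m and in no other library. Ltf lay before Camp in the other 5, with positions of 1.70 for Ltf and 1.71 for Camp in CBMA_02m and of 1.92 for Ltf and 2.28 for Camp in CBMD_18m, and Mmp8 lay last among the 4 genes in each library. In CBMA_02m Fcnb also lost the first place, with a position of 1.74 behind both. Few Fcnb UMIs were left in those cells, 56 to 593 per library.

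UMIs of the early genes were often counted in the same cells, and Camp also in cells that should lack it. At 1000 UMIs per cell, 71.7% to 93.9% of neutrophils with a Fcnb UMI also had a Camp UMI, against 8.98% to 68.3% of those without Fcnb. At that depth Camp was counted in 1.31% to 40.9% of T, NK and B cells, highest in CBMA_12m, Ltf in 0 to 9.74% and Mmp8 in 0 to 1.53%. Ltf was found in 46.2% to 70.6% of Fcnb-positive cells and 3.31% to 28.0% of the others. Mmp8 was found in 6.98% to 15.1% of Fcnb-positive cells and in 47.3% to 65.5% of Fcnb-negative ones. Fcnb and Mmp8 were thus seldom counted in the same cell, while Ltf-positive cells had Mmp8 in 27.7% to 50.5%.

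The third question was how CBMA_12m differed from the other libraries. The 8 genes together made up 4.95% of neutrophil UMIs in CBMA_12m, against 2.60% in CBMA_02m, 1.52% in CBMA_18m, 0.811% in CBMD_02m, 2.27% in CBMD_12m and 1.15% in CBMD_18m. This was 3.26 times the median of the other 5 (counting interval 3.24 to 3.27) and 1.90 times the highest of them, CBMA_02m. By gene, the ratio to the median of the others was 5.37 for Camp, 4.82 for Orm1, 4.19 for Ngp, 4.08 for Fcnb, 3.63 for Ltf and 1.90 for Lcn2. For Mmp9 it was 0.942 and for Mmp8 0.722.

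Of the 8 genes, 6 were highest in CBMA_12m, but 45.4% of all genes compared were highest there too. Fcnb, Camp, Ngp, Ltf and Orm1, 5 genes, were at least 1.5-fold above each other library, and 17.5% of all genes were. Lcn2 was only 1.08 times its level in CBMA_02m, and Mmp8 was lowest of the 6 libraries, at 0.981 of the next. The median gene also stood higher in CBMA_12m, by 0.41 on the log2 scale over 13692 genes, and the median of the 8 stood at 1.94. Relative to the median gene, Camp was 2.01 higher, Orm1 1.86, Ngp 1.65, Fcnb 1.61, Ltf 1.45 and Lcn2 0.52 on the log2 scale, while Mmp9 was at -0.50 and Mmp8 at -0.88.

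CBMA_12m also held more immature neutrophils. The first maturation bin held 26.1% of its neutrophils, against 16.1% in CBMA_02m, 4.28% in CBMA_18m, 2.49% in CBMD_02m, 8.58% in CBMD_12m and 2.84% in CBMD_18m. The last bin held 2.87% of its neutrophils, 38 cells, against 7.96% to 13.6% in the others. Thinned to 1000 UMIs, 23.9% of its neutrophils had a UMI of Mki67 or Top2a, against 5.09% to 14.1% in the others.

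Compared among cycling cells alone, the distance was smaller. The 8 genes made up 7.82% of the UMIs of cycling neutrophils in CBMA_12m and 2.99% to 6.21% in the other libraries, 1.40 times their median. None of the 8 was 1.5-fold above each other library, as were 0.521% of all genes. With all 10 bins weighted equally the ratio was again 1.40, and 1 gene, Mmp9, was 1.5-fold above each other library, as were 5.25% of all genes; none of the 5 genes above was. Among non-cycling neutrophils the ratio was 2.94, and Fcnb, Camp, Ltf and Orm1 were at least 1.5-fold above each other library, as were 18.6% of all genes. Their ratios to the median of the others were 10.5 for Fcnb, 9.53 for Camp, 7.96 for Orm1 and 6.01 for Ltf.

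Bin by bin, Camp and Ngp in CBMA_12m lay above the median of the others in 10 of 10 bins, with median ratios of 3.26 and 1.94, and were highest of all libraries in 3 of them. Fcnb lay above in 9 bins with a median ratio of 4.11, Ltf in 8 with 1.95 and Lcn2 in 9 with 1.25. Orm1 went the other way, above in 4 bins with a median ratio of 0.638 and at 0 CPM in bins 5 to 10. For Fcnb the ratio was 1.04 in bin 1 and 1.93 in bin 2. In bins 6 to 10, of 38 to 70 cells each, Fcnb stood at 0 to 23.1 CPM. T, NK and B cells of CBMA_12m held it at 12.9 CPM. Mmp9 behaved unlike its total: in every bin it was above the median of the others, by 1.32 to 2.27 times, and it was highest of all libraries in 9 of 10. In the last bin Mmp9 stood at 3236 CPM in CBMA_12m, against 1567 to 2129 CPM in the others, and in bin 5 at 2706 CPM against 1199 to 1701 CPM. Mmp8 lay above the median in 9 bins with a median ratio of 1.40, but in bin 1 it was lowest of all libraries, at 0.727 of the median of the others. The level of Mmp9 and Mmp8 in CBMA_12m was thus below the median of the others over all neutrophils. Bin by bin it was above that median in 10 of 10 bins for Mmp9 and in 9 for Mmp8. Shares over all genes were not computed bin by bin, and over all neutrophils the median gene itself stood 0.41 higher on the log2 scale.

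**Figure D5:**
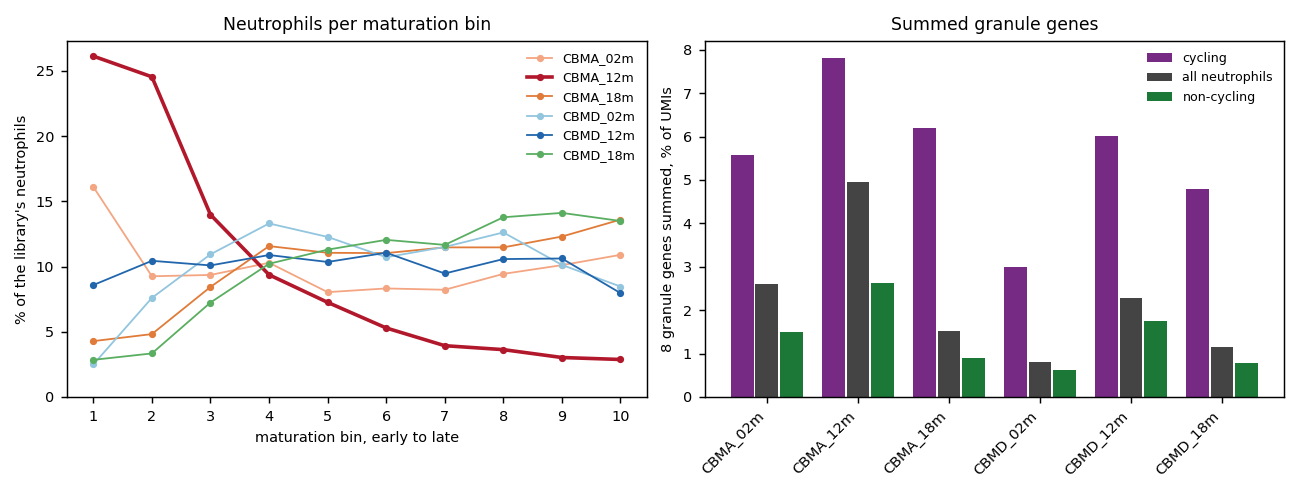
Maturation stage and the summed level of the 8 genes by library. Left, the percentage of each library's neutrophils in each of the 10 bins; right, the 8 genes as a percentage of UMIs in cycling, all and non-cycling neutrophils. CBMA_12m had 26.1% of its neutrophils in the first bin and 4.95% of neutrophil UMIs from the 8 genes.

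The 12m cells were also compared by Xist and Y-linked UMIs. Neutrophils with a Y-linked UMI and no Xist summed to 59022 CPM over the 8 genes in CBMA_12m, in 265 cells, against 7650.6 to 22197 CPM in cells chosen in the same way in the other 5 libraries, 3.84 times their median and 2.66 times the highest. Of these cells 24.9% were cycling in CBMA_12m and 3.40% to 13.1% in the others. In them 6 of the 8 genes were highest in CBMA_12m, against 43.5% of all genes, and 5 were 1.5-fold above each other library, against 19.8%. Cells with Xist and no Y-linked UMI summed to 60351 CPM in 370 cells of CBMA_12m and to 32882 CPM in 732 cells of CBMD_12m, and the other libraries have no like cells. Set against all neutrophils of the other 4 libraries, 6 genes were highest in CBMA_12m, against 43.5% of all genes, and 5 were 1.5-fold above each, against 19.9%. The cells set against each other were not alike there. In CBMA_12m 34.1% of the cells with Xist and no Y-linked UMI were cycling, against 3.64% to 14.8% of all neutrophils in those 4 libraries.

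The difference was smaller in cells with neither. These were 784 of the 1470 neutrophils of CBMA_12m and summed to 28908 CPM, against 8972.7 to 29097 CPM in like cells of the other libraries, 2.11 times their median and 0.993 of the highest, CBMA_02m. Of them 10.5% were cycling in CBMA_12m and 3.86% to 16.0% in the others. Their median depth in CBMA_12m was 2136.5 UMIs, against 3170 UMIs in its cells with a Y-linked UMI only and 3564.5 UMIs in those with Xist only.

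Leaving out neutrophils with 3 or more UMIs of another lineage's marker list changed the call. The ratio for the 8 genes then stood at 2.55, and none of them was 1.5-fold above each other library, as were 20% of all genes. Against the median of the others the log2 ratios were not smaller, at 2.34 for Fcnb, 2.72 for Camp, 2.24 for Ngp, 2.43 for Ltf and 2.35 for Orm1, and 5 of the 8 genes were highest in CBMA_12m. The share of all genes that were highest there was not computed in these cells. Those lists include Mpo, Elane, Prtn3 and Ctsg, which early neutrophils express themselves, and the step took out 566 of the 1470 neutrophils of CBMA_12m and 660 to 1643 of those of the others.

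Next, CBMA was set against CBMD at each age, and Ltf, Ngp and Orm1 were at least 1.5-fold higher near the suture at all 3 ages. Of 24 pairs of gene and age, 14 were at least 1.5-fold higher in CBMA, against 20.8% over all genes and ages, and 0 were lower, against 8.56%. At 02m, 6 genes were higher, against 20.2% of all genes: Camp by 6.98-fold (counting interval 6.90 to 7.07), Orm1 by 6.26-fold, Fcnb by 5.73-fold, Ltf by 5.55-fold, Ngp by 4.34-fold and Lcn2 by 1.96-fold. At 12m, 5 genes were higher, against 37.2% of all genes: Fcnb by 4.08-fold (3.85 to 4.33), Orm1 by 3.90-fold, Camp by 3.21-fold, Ngp by 2.14-fold and Ltf by 2.11-fold. At 18m, 3 genes were higher, against 5.97% of all genes: Ltf by 2.23-fold (2.16 to 2.30), Ngp by 1.80-fold and Orm1 by 1.63-fold (1.33 to 2.01).

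The distance between sites was widest at 02m. At 18m Camp lay at the limit, just short of it, with a counting interval of 1.48 to 1.52, and Fcnb had a ratio of 1.27. The median log2 ratio of the 8 genes was 2.30 at 02m, 1.09 at 12m and 0.467 at 18m, against 0.0975, 0.347 and 0.0411 over all genes. Mmp8 and Mmp9 passed 1.5-fold at no age, with ratios of 1.22 and 1.08 at 02m, 0.722 and 0.942 at 12m and 0.860 and 0.979 at 18m. The share of cycling neutrophils moved with the site at each age, at 14.8% in CBMA_02m and 4.18% in CBMD_02m, 20.2% in CBMA_12m and 6.55% in CBMD_12m, and 4.86% in CBMA_18m and 3.64% in CBMD_18m. With maturation bins weighted equally 5 of the 24 pairs were higher in CBMA, against 10.2% over all genes, and among cycling cells 9 were higher, against 7.26%, and 4 lower, against 12.6%.

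The site ratios at 12m differed between kinds of cell, which also differed in their share of cycling cells. Of neutrophils with a Y-linked UMI and no Xist, 24.9% were cycling in CBMA_12m and 5% in CBMD_12m. Of those with Xist and no Y-linked UMI, 34.1% and 11.3% were. The cause of the differing ratios was not tested. In neutrophils with a Y-linked UMI and no Xist, Fcnb was 6.64-fold, Camp 5.75-fold, Orm1 5.51-fold, Ngp 3.48-fold, Ltf 3.20-fold and Lcn2 1.76-fold higher in CBMA_12m than in CBMD_12m, and Mmp8 was lower, at 0.483. In those with Xist and no Y-linked UMI, Orm1 was 3.18-fold, Fcnb 3.12-fold, Camp 2.52-fold, Ngp 1.72-fold and Ltf 1.67-fold higher, Lcn2 had a ratio of 1.21 and Mmp8 one of 0.616.

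Over the 6 libraries, site was tested with age as a block by edgeR's quasi-likelihood test, a test added after seeing the data that leaves 2 residual degrees of freedom. No gene of 13780 had an adjusted p under 0.05 between the sites, and 2735 had an unadjusted p under 0.05. Fcnb, Camp, Ngp, Ltf and Orm1, with fitted ratios of 2.25 to 3.05, each had an adjusted p of 0.147 by edgeR and were higher in CBMA at 3 of 3 ages. Lcn2, Mmp8 and Mmp9 had adjusted p of 0.397, 0.465 and 0.608 by edgeR. In the same fit on cycling or on non-cycling neutrophils alone, 0 of the 8 genes had an adjusted p under 0.05 between the sites. Over all genes, 139 of 10163 did in cycling and 0 of 12928 in non-cycling neutrophils. The fit takes differences between sites that vary with age as spread, and the calls rest on single libraries. Leaving out CBMA_18m or CBMD_18m changed how many of the 8 genes had an adjusted p under 0.05. Leaving out any of the other 4 libraries did not. Each such fit leaves 1 library at an age, and its count over all genes was not computed.

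The ages were then compared within each site, in comparisons that share libraries with each other. In CBMA, the 12m library stood above the 02m library by at least 1.5-fold for 5 genes, against 32.4% of all genes: Ngp by 2.55-fold, Ltf by 2.46-fold, Camp by 2.17-fold (2.15 to 2.18), Fcnb by 1.98-fold and Orm1 by 1.81-fold. In CBMD, it did so for 6 genes, against 25.8% of all genes: Ltf by 6.45-fold (6.25 to 6.66), Ngp by 5.17-fold, Camp by 4.71-fold, Orm1 by 2.90-fold, Fcnb by 2.79-fold and Lcn2 by 1.60-fold. At 1.5-fold the 8 genes thus had 0 lower and 11 higher values at 12m than at 02m over both sites. No share of all genes that were lower is available for these comparisons. Over the 6 age comparisons together it was 21.7%. Below that size, Mmp8 in CBMA was lower at 12m, at 0.803 (0.779 to 0.828), and Mmp9 in CBMA stood at 0.976. In neutrophils with a Y-linked UMI and no Xist at both ages, the same 5 genes were 2.63-fold to 3.68-fold higher in CBMA and 2.16-fold to 6.35-fold higher in CBMD, Lcn2 did not pass in CBMD, at 1.38, and Mmp8 was lower in CBMA, at 0.571.

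At 18m most of these levels were lower again. In CBMA the 18m library was lower than the 12m library for 6 genes, against 40.6% of all genes, with Camp at 0.186, Orm1 at 0.208, Ngp at 0.239, Ltf at 0.275, Fcnb at 0.308 and Lcn2 at 0.525 of the 12m level. In CBMD it was lower for 5 genes, against 24.3% of all genes, with Ltf at 0.261, Ngp at 0.283, Camp at 0.399, Orm1 at 0.496 and Lcn2 at 0.589. Fcnb in CBMD had a ratio of 0.986 (0.922 to 1.05), which counting error cannot tell from 1. Mmp9 was higher at 18m than at 12m by less than 1.5-fold, at 1.14 in CBMA and 1.09 in CBMD. Mmp8 alone passed 1.5-fold upwards over all neutrophils. It was 1.94-fold (1.89 to 2.00) higher at 18m in CBMA, where 12.7% of all genes passed. In CBMD it was 1.63-fold (1.60 to 1.67) higher, where 10.4% of all genes passed. In cells with a Y-linked UMI and no Xist it had ratios of 2.85 in CBMA and 1.49 in CBMD, where it fell short of 1.5-fold, as did Lcn2 in CBMD at 0.689. The other genes called lower at 18m were also lower in these cells, at 0.155 to 0.482 in CBMA and 0.277 to 0.579 in CBMD.

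Between the oldest and the youngest mice the sites differed. In CBMA, 5 genes were lower at 18m than at 02m, against 24.6% of all genes, with Orm1 at 0.375, Camp at 0.404, Lcn2 at 0.569, Ngp at 0.608 and Fcnb at 0.610. Mmp8 was 1.56-fold higher there, against 16% of all genes. In CBMD no gene was at least 1.5-fold lower. There 4 were at least 1.5-fold higher, against 14.6% of all genes: Fcnb by 2.75-fold (2.56 to 2.95), Mmp8 by 2.22-fold (2.17 to 2.26), Camp by 1.88-fold and Ltf by 1.69-fold. Within kinds of cell the ratios of Fcnb and Camp had other directions: in non-cycling neutrophils Fcnb stood at 0.353 of its 02m level in CBMA and 0.349 (0.258 to 0.466) in CBMD, and Camp at 0.249 and 0.826, while in cycling ones Fcnb stood at 1.43 and 3.02 times and Camp at 0.997 and 2.05 times. Over all neutrophils Mmp8 was higher at 18m in both sites and against both younger ages, but in non-cycling ones it fell short of 1.5-fold in CBMA, at 1.32 against 02m and 1.29 against 12m. Mmp9 passed 1.5-fold in none of the 6 age comparisons, with ratios of 0.976 to 1.22.

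Over the 6 age comparisons 18 of 48 pairs were higher at the later age, against 18.8% over all genes, and 16 lower, against 21.7%. With both 12m libraries left out, 5 of the 16 remaining pairs were higher, against 15.3%, and 5 lower, against 21.5%. With maturation bins weighted equally 9 of the 48 were higher, against 16.6%, and 6 lower, against 14.6%, so these shares lay close to those of all genes. Among cycling cells 3 of the 48 were lower, against 11%, and with mixed-lineage neutrophils left out, as above, 9 were higher, against 18%.

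The edgeR fit with site as a block was also run on kinds of cell, for 12m against 02m, 18m against 02m and 18m against 12m. In non-cycling neutrophils 3, 1 and 5 of the 8 genes had an adjusted p under 0.05 by edgeR. Over all 12928 genes there, 1223, 1027 and 927 did. In cycling neutrophils 2, 1 and 0 of the 8 genes passed, against 577, 619 and 68 of 10163 genes. Over all neutrophils, 1 of the 24 age values of the 8 genes had an adjusted p under 0.05 by edgeR. It was Ngp at 18m against 12m, with a fitted ratio of 0.321 and an adjusted p of 0.0491, lower in both sites. The adjusted p by edgeR was 0.0547 for Ngp and 0.0556 for Ltf at 12m against 02m, and 0.094 for Mmp8 at 18m against 02m. Over all genes, 565 had an adjusted p under 0.05 at 12m against 02m, 605 at 18m against 02m and 540 at 18m against 12m. The call of Ngp was lost without CBMA_12m, without CBMA_18m and without CBMD_12m. Leaving out CBMD_18m also changed how many of the 8 genes passed. Each of these fits leaves 1 library at an age, and its count over all genes was not computed.

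Other genes of the same development were described for CBMA_12m from lists of primary granule, granule, transcription factor, inhibitor, receptor and surface genes. Primary granule genes moved with the early members: 7 of 9 measured ones were at least 1.5-fold above each other library, against the 17.5% of all genes given above, with a median of 2.12 on the log2 scale and 0.41 over all genes. Elane, neutrophil elastase, stood at 1495 CPM in CBMA_12m, against 152 to 684 CPM in the others; Prtn3, proteinase 3, at 1269 CPM against 156 to 719 CPM; and Ms4a3, a membrane protein of early granulocytes, at 207 CPM against 17.0 to 70.3 CPM. Of 19 other measured secondary and tertiary granule genes, 5 passed in the same way, with a median of 0.48 against the same 0.41. They include Chil3, a chitinase-like lectin, at 3693 CPM against 427 to 1854 CPM, Itgb2l at 253 CPM against 33.9 to 144 CPM, and Cybb, the heavy chain of the oxidase that makes superoxide, at 971 CPM against 171 to 507 CPM.

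Of the 12 transcription factors, 3 were at least 1.5-fold above each other library, against the same 17.5%, with a median of 0.17, below that of 0.41 over all genes. Gfi1, a repressor needed for neutrophil formation, stood at 52.2 CPM in CBMA_12m, against 4.33 to 17.9 CPM in the others, and Cebpe, which encodes C/EBPε, at 289 CPM against 33.9 to 135 CPM. Cebpb, which encodes C/EBPβ, stood at 696 CPM, against a median of 1750.5 CPM in the others. None of 4 measured inhibitors and partners of Mmp8 and Mmp9 passed, with a median of -0.68: Timp2, an inhibitor of metalloproteinases, stood at 125 CPM in CBMA_12m against 175 to 264 CPM, Mmp14, a membrane-bound protease, at 0.671 CPM against 0.362 to 1.86 CPM, and Timp3, another inhibitor, at 14.1 CPM against 1.46 to 13.1 CPM.

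None of 3 measured receptors of granule products passed either, with a median of -0.25. Fpr2, which binds cathelicidin peptides, stood at 305 CPM in CBMA_12m against 345 to 449.9 CPM, Fpr1, its relative for formylated peptides, at 125 CPM against 167 to 279 CPM, and Lrp1, a scavenger receptor that takes up lactoferrin and protease complexes, at 16.9 CPM against a median of 18.1 CPM. Of 8 genes of the mature surface none passed, with a median of -0.80, and the decoy receptor gene Il1r2 stood at 164 CPM in CBMA_12m, against 427 to 913 CPM, and Cxcr2, a chemokine receptor, at 473 CPM against 444 to 1339 CPM.

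Genes with the most similar pattern were sought among 6065 genes over 60 profiles, 10 bins in each of 6 libraries, by Pearson's r of log2(CPM + 1). The profiles share libraries and an axis, so r is a description and carries no p. Fcnb was most like Anln (0.935), a gene of cell division, Lta4h (0.929), which makes leukotriene B4, and Kif11 (0.924), a motor of the spindle. Camp was most like Chil3 (0.954), which is 1 of the genes of the axis, then Lta4h (0.944) and Gnas (0.938), and Ltf was most like Gnas (0.919), Cybb (0.910) and Chil3 (0.909). Mmp8 was most like Prr13 (0.983), Timp2 (0.970) and Fpr2 (0.961). Among the 8 themselves, Camp had an r of 0.961 with Ltf and with Ngp, and Mmp8 one of 0.952 with Mmp9, while Fcnb and Mmp8 had -0.816.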

How the data were processed

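The deposited files hold UMI counts per gene and barcode for 6 droplet libraries. Per the labels and the study's methods, the authors demultiplexed with bcl2fastq, then aligned to GRCm38 and counted UMIs with Cell Ranger 5.0.1; the annotation release is not given in the sources used here. The counts are whole numbers with no normalization, for barcodes called as cells. Cells with 500 to 5000 genes, more than 500 UMIs and under 25% mitochondrial UMIs were kept, limits that the study states; the 37576 cells left here are more than the study counts. No doublet caller was run. Neutrophils, cycling cells and maturation bins were defined as given in the results. Bins of a library with under 20 cells were left out. UMIs of a gene were summed over the cells of a library and divided by their total (CPM). Ratios carry exact 95% intervals from the Poisson sums and shares exact Clopper-Pearson intervals; UMIs mark molecules, and both cover counting error only. Genes were compared with at least 50 UMIs over the libraries compared.

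T, NK and B cells had under 2% S100a8 and S100a9 and at least 3 UMIs of their marker list, more than of any other list. Named genes were the 8 members, from each list the 3 of at least 50 UMIs with the largest change in CBMA_12m against the median of the others, and for Fcnb, Camp, Ltf and Mmp8 the 3 most similar genes of at least 1000 UMIs. Members and lists were chosen with earlier results of these data known. Depth per library was 16031737 to 66264495 UMIs over 3280 to 9749 barcodes. Positions of genes are from GENCODE M21. The ratios, the calls and the thinning were tested on simulated data, and the maturation bins were not. Added after seeing the data, edgeR 4.0.16 in R 4.3.3 fitted site and age to UMIs summed over the neutrophils of each library (TMM, quasi-likelihood, Benjamini-Hochberg over 13780 genes). It was also run on non-cycling and on cycling neutrophils, over 12928 and 10163 genes. The fit was also tested on simulated data, and pooled mice per library limit its p-values to the spread between libraries. Alternatives changed the neutrophil limit, the gene limits, the scaling, the cells, the bins and the libraries. Python 3.11.15, numpy 2.4.6, scipy 1.17.1, pandas 2.3.3 and matplotlib 3.10.9 were used.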

Additional observations from a re-analysis of the deposited data

Results flagged for a closer look

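Over all neutrophils, Fcnb and Camp had opposite directions with age at the 2 sites. Fcnb in neutrophils stood at 215 CPM in CBMA_18m and 352 CPM in CBMA_02m, a ratio of 0.610, and at 169 CPM in CBMD_18m and 61.4 CPM in CBMD_02m, a ratio of 2.75. Camp stood at 4274 CPM in CBMA_18m and 10582 CPM in CBMA_02m, a ratio of 0.404, and at 2849.6 CPM in CBMD_18m and 1515 CPM in CBMD_02m, a ratio of 1.88. Each ratio rests on 1 library per age, so the difference between the sites was not tested. The share of cycling neutrophils was 4.86% in CBMA_18m and 14.8% in CBMA_02m, and 3.64% in CBMD_18m and 4.18% in CBMD_02m. Within kinds of cell the directions were not opposite by 1.5-fold: in non-cycling neutrophils the ratio of 18m to 02m was 0.353 in CBMA and 0.349 in CBMD for Fcnb and 0.249 and 0.826 for Camp, and in cycling ones it was 1.43 and 3.02 for Fcnb and 0.997 and 2.05 for Camp.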

How the results depend on the processing

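Over 30 settings, 154 alternatives of 9 results were computed: 115 stayed within the counting interval or 1.5 times the count, 39 moved and 0 reversed. The 3.26-fold ratio of the 8 genes in CBMA_12m became 3.15 with neutrophils taken at 1% of S100a8 and S100a9, 3.30 at 5%, 3.20 with cells of at least 200 genes, 2.55 without mixed-lineage neutrophils, 2.38 with median-of-ratios size factors, 3.57 with totals without the 8 genes, S100a8 and S100a9, 2.81 as a mean of per-cell CPM, 3.01 with thinned cells, 3.23 with the rate in T, NK and B cells subtracted, 1.40 with bins weighted equally, 2.94 in non-cycling and 1.40 in cycling neutrophils, 3.88 and 3.97 in 12m cells with Y-linked or Xist UMIs only, 3.84 in cells with Y-linked UMIs only in all libraries, and 2.61 to 3.70 with 1 other library left out. The 6 genes highest in CBMA_12m were 3 with bins weighted equally. The 5 genes 1.5-fold above each other library were 0 without mixed-lineage neutrophils, 3 as a mean of per-cell CPM, 1 with bins weighted equally and 0 in cycling cells. For counts in this section with no share over all genes in the results above, that share was not computed. The 6 genes higher in cycling cells stayed 6 in all 15 alternatives. The order Fcnb, Camp, Ltf, Mmp8 held in 1 of 6 libraries with non-cycling cells only and in 4 of 6 without mixed-lineage neutrophils.

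The 14 gene and age pairs higher in CBMA were 5 with bins weighted equally, 9 in cycling cells and 9 of 16 without both 12m libraries, and the 0 lower pairs were 1 with median-of-ratios size factors, 1 in cells with Y-linked UMIs only and 4 in cycling cells. The 18 pairs higher at the later age were 9 without mixed-lineage neutrophils, 9 with bins weighted equally and 5 without both 12m libraries, and the 16 lower pairs were 6, 3 and 5 with bins weighted equally, in cycling cells and without both 12m libraries. Weighting bins equally also turned the log2 ratio of Mmp8 in CBMA_12m to 0.54 and that of Mmp9 to 0.84. Leaving out libraries, cells with Y-linked UMIs only in all libraries, the edgeR fit, the fine bins, 20 bins and removing the upper limit on genes (ratio 3.16) were chosen after seeing the data. The cause of these changes was not tested. The counts of the edgeR fit that follow are those over all neutrophils. In the edgeR fit, the genes with an adjusted p under 0.05 were 0 of 8 between sites, 0 at 12m against 02m, 0 at 18m against 02m and 1 at 18m against 12m. Leaving out 1 library, which leaves 1 library at an age, changed each of these counts for some of the libraries. The 1 was 0 with RLE normalization and without site as a block.

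Depth limits the rarer genes: Orm1 reached 7.94 to 89.8 CPM, Fcnb had 56 to 593 UMIs in non-cycling neutrophils of a library, and the last bin of CBMA_12m held 38 cells. Intervals leave out differences between mice.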

Other observations

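Some of the 8 genes were also counted above the T and NK cell level in other cells. Cells were placed here by the marker list with the most UMIs, with under 2% S100a8 and S100a9. Mmp8 stood at 157 CPM in 8188 monocytes and macrophages, between 111 and 193 CPM in each library, against 12.2 CPM in T and NK cells and 8.69 CPM in B cells. Fcnb stood at 45.4 CPM in the same monocytes and macrophages, between 20.8 and 64.3 CPM by library, and at 120 CPM in 1006 progenitors of granulocytes and monocytes, between 70.0 and 180 CPM by library, against 4.15 CPM in T and NK cells. Lcn2 stood at 97.4 CPM in monocytes and macrophages, 119 CPM in progenitors and 125 CPM in 429 basophils and mast cells, against 37.6 CPM in T and NK cells. Mmp9 stood at 1557 CPM (counting interval 1426 to 1696) in 24 cells placed as osteoclasts, bone-resorbing cells, which is too few to compare libraries.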
